A study of Mus musculus with 60 samples.

Results

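The 9 genes Apoe, Clu, Apod, Apoc1, Lpl, Abca1, Abcg1, Lrp1 and Soat1, which carry, release, take up or store cholesterol and other lipids, were followed through sorted microglia and astrocytes of aging mice. They were taken by name from a table of 35999 mouse genes by a rule that sets no threshold on their levels, with earlier results of these data known, and all 9 were found in it. Microglia (CD45 low to intermediate, CD11b positive) and astrocytes (ACSA2 positive) were sorted from brains of male APPswe/PS1ΔE9 mice (AD; strain label APPswe/PS1-delta=E9) and of male C57BL/6 littermates (WT) at 2, 4, 6, 9 and 12 months of age. By the labels there were 60 RNA libraries, 3 for each of 20 groups of genotype, age and cell type. No group received a drug or other treatment according to the labels. The AD mice carry human mutant amyloid precursor protein and presenilin transgenes that a mouse prion promoter drives, which is not specific to glia, and amyloid plaques are their main lesion.

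Each gene had 1 deposited FPKM value (fragments per kilobase of exon, relative to the depth of the library) per group, called the authors' mean below. Because these values were stored with 15 significant digits, the whole fragment counts of the single libraries could be worked out from them for most genes, which gave 28 microglia and 30 astrocyte libraries. The WT 12-month and the AD 4-month microglia columns were means of 2 libraries and every other column of 3. The libraries held 13.1 to 20.3 M fragments in microglia and 17.8 to 22.8 M in astrocytes. Libraries are numbered by their depth here, which is not the number in the labels. A very high value cannot be split into its libraries: Apoe and Apod could be split in no astrocyte group, Clu in only the WT 12-month astrocytes, and Apoe in microglia only at 2, 4, 9 and 12 months in WT and at 2 and 4 months in AD. Fold changes are on the log2 scale after scaling by size factors (median of ratios) and after 0.1 was added. A gene is said to have risen or fallen only where limma gave a Benjamini-Hochberg adjusted p under 0.05 over all genes and the log2 fold change was beyond 0.5 in size. All comparisons with 2 months within a genotype and cell type share the same 2-month libraries.

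Glia supply most of the lipoprotein particles of the brain. Astrocytes load lipids onto ApoE and clusterin (ApoJ) with the transporters ABCA1 and ABCG1, and neurons and glia take the particles up through receptors such as LRP1. Inside the cell, excess cholesterol is esterified by SOAT1 and kept in lipid droplets, while lipoprotein lipase releases fatty acids from triglyceride at the cell surface. Abca1, Abcg1 and Apoe are known targets of the liver X receptors, nuclear receptors that sense oxysterols, and Apoe and Lpl are known to be high in microglia that surround plaques.

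Microglia markers summed to 25040 to 53340 FPKM over 11 genes in the microglia groups and to 23.9 to 49.97 FPKM in the astrocyte groups, so these markers went with the label of the sort. Astrocyte markers summed to 641 to 1109 FPKM over 12 genes in astrocytes, where 11 oligodendrocyte markers also summed to 12820 to 20960 FPKM. The part of oligodendrocytes and other cells in the levels of the astrocyte groups was not tested for any member. Of the microglia libraries 3 stood apart by endothelial markers. Library 2 of the AD 4-month microglia had 787 FPKM over 11 endothelial markers and 10900 over the choroid plexus markers, library 3 of the AD 2-month microglia had 240 and 2935, and library 1 of the WT 4-month microglia had 155 and 4542, while the endothelial sum was 5.70 to 41.5 FPKM in every other microglia library. The other libraries outside 6 months had 2.14 to 1557 FPKM over the choroid plexus markers. At 6 months Ttr, which made up almost all of these sums, could not be split into libraries, and the group sums were 3386 FPKM in WT and 4907 in AD, against 312 and 1182 at 2 months. At 12 months, long transcripts were lower and short ones higher in AD than WT microglia: the median log2 fold change was 0.53 for genes of up to 1000 exon bases and -0.86 for those above 16000, with 0.13 and -0.27 in astrocytes. The same tilt was seen in WT microglia of 6 against 2 months, from 0.55 to -0.78. For the long genes Lrp1, Lpl, Abca1 and Soat1, values with the trend in length and GC content removed are given beside the main changes.

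Promoter sequences of members with liver X receptor biology or with levels that moved together are shown here because the receptor's DNA element can be looked for in them. RefSeq promoters (GRCm38.p6, 250 bases before to 50 after the gene start) matched 5 of the 9 genes. The element searched was GGTNANNNNNGGTCA on both strands (reverse complement TGACCNNNNNTNACC), a direct repeat with a 4-base spacer in which N is any base and which overlaps no other motif searched. It occurred in 68 of 32851 promoters (0.207%). Among these 5 genes only the Abca1 promoter held it, marked by capitals. The Lrp1 and Apoe promoters printed with it held none in this window. Clu, Lpl, Abcg1 and Apoc1 had no promoter entry and were not searched. All 3 lie on the minus strand and are written 5′ to 3′: Abca1 at chr4:53159846-53160145, Lrp1 at chr10:127621099-127621398 and Apoe at chr7:19699139-19699438.
Abca1: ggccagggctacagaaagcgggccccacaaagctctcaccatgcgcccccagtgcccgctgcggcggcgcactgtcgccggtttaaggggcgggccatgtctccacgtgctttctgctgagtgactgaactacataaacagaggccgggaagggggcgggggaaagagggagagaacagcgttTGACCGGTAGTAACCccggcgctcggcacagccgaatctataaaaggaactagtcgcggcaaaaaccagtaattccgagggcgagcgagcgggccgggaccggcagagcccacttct
Lrp1: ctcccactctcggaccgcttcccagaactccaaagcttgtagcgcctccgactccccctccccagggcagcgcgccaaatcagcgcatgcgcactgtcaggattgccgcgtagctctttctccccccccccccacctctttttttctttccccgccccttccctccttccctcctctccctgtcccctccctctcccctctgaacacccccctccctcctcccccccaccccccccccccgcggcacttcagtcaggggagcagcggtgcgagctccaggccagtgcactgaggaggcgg
Apoe: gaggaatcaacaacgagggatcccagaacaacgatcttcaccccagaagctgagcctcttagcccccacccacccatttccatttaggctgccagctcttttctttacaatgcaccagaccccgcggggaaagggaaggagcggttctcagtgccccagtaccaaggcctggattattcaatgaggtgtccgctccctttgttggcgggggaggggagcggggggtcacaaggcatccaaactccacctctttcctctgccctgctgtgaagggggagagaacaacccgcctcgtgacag

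For Lpl and Abcg1, the genes with the largest tested AD changes in microglia and astrocytes, the designed qPCR primers of 20 bases mark the transcript that was assayed elsewhere in the study.
Lpl forward: aagccccacaagtgtagtcg
Lpl reverse: ataatggggatgccggtgac
Abcg1 forward: cctgcctcctcttctaccct
Abcg1 reverse: tgccttgggtttgggtttct

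Over 5 ages the 9 genes gave 45 comparisons of AD with WT in each cell type. In microglia 19 of 45 were higher in AD by the fold alone, against 14.6% of all genes, and 3 lower, against 11.2%. With limma, 3 of 42 rose, all of them Lpl, against 3.24% of all genes, and 2 fell (Abca1 and Lrp1 at 12 months), against 3.92%. In astrocytes 2 of 45 were higher by the fold alone, against 10.0%, and 8 lower, against 9.66%. There limma called 0 of 30 as higher, against 2.53%, with 2 at an unadjusted p under 0.05, and 3 as lower (Abcg1 and Lrp1 at 12 months, Soat1 at 6 months), against 2.84%. At 12 months alone limma called 14.0% of all genes higher and 18.4% lower in AD microglia, and 7.69% higher and 10.1% lower in AD astrocytes, so the 12-month calls stood among many. By the fold alone the members' share was above that of all genes for higher values in AD microglia and lower values in AD astrocytes. It was under that of all genes in the other directions. Some of the higher values in AD microglia rested on single libraries that stood apart by endothelial markers. The 2-month group folds of Clu and Apod went from 1.328 and 1.004 to -0.196 and -0.145 without AD 2-month library 3. Without AD 4-month library 2, those of Apoe, Clu and Apod at 4 months turned negative, and that of Apoc1 went from 1.43 to 0.10. Other omissions added values: Clu at 6 months went from 0.377 to 1.3 without WT 6-month library 1.

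Lpl encodes lipoprotein lipase, which hydrolyses the triglyceride of lipoproteins (chr8:68880491-68907448, plus strand, GRCm38 with GENCODE M21). In WT microglia the 14 libraries lay between 0.321 and 1.71 FPKM at every age. In AD microglia the libraries of 2 months gave 0.882, 1.29 and 1.95 FPKM and those of 4 months 0.585 and 0.986. At 6 months they gave 2.86, 2.96 and 4.80 FPKM against 0.471, 0.508 and 0.634 in WT. At 9 months they gave 7.18, 10.8 and 12.4 FPKM against 0.524, 0.741 and 1.27. At 12 months they gave 7.35, 14.8 and 24.3 FPKM against 1.15 and 1.19. The AD and WT libraries overlapped at 2 and 4 months and did not overlap from 6 months on. Lpl rose in AD against WT by 2.49 (SE 0.44, limma adjusted p = 0.00855) at 6 months, by 3.44 (SE 0.44, adjusted p = 0.000228) at 9 months and by 3.46 (SE 0.50, adjusted p = 1.89e-05) at 12 months, while the values were 0.15 (adjusted p = 0.993) at 2 and 0.33 (adjusted p = 0.807) at 4 months. By the authors' means, scaled by size factors and with 0.1 added, the ratios of AD to WT were 5.61, 10.2 and 12.6 from 6 to 12 months. Within AD microglia Lpl rose against 2 months by 1.33 (limma adjusted p = 0.024) at 6, 2.78 (adjusted p = 0.000247) at 9 and 3.31 (adjusted p = 8.10e-06) at 12 months. The 6-month rise against 2 months was lost when AD 2-month library 2 or 3 or AD 6-month library 1 was left out. With the length and GC trend removed the rises against WT were 2.39, 3.34 and 3.81 at 6, 9 and 12 months (limma adjusted p = 0.0126, 0.000308 and 1.16e-05) and those against 2 months 1.67, 2.65 and 3.64 (adjusted p = 0.00717, 0.000472 and 4.54e-06). Neutrophil markers (7 genes split into libraries) summed to 2242 to 3491 FPKM in the AD 9-month libraries and to 341, 635 and 3763 FPKM in AD 12-month libraries 1, 2 and 3, in which Lpl was 24.3, 7.35 and 14.8 FPKM. At 6 months the AD libraries 1, 2 and 3 had neutrophil sums of 456, 6.02 and 0.175 FPKM and Lpl levels of 4.80, 2.86 and 2.96 FPKM. The WT 12-month libraries had neutrophil sums of 190 and 604 FPKM and Lpl levels of 1.15 and 1.19 FPKM. The part of neutrophils in the Lpl levels was not tested.

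In astrocytes Lpl stayed between 0.853 and 2.32 FPKM by the authors' means. AD astrocytes had 1.37, 1.83 and 2.22 FPKM at 2 months and 0.788, 0.859 and 0.911 at 12 months, a fall of -0.97 (SE 0.33, limma adjusted p = 0.0265). WT astrocytes had 1.59, 1.87 and 2.76 FPKM at 2 months and 0.847, 0.878 and 1.26 at 9 months, a fall of -0.99 (limma adjusted p = 0.0459). With the length and GC trend removed both were past the threshold no longer (adjusted p = 0.108 and 0.0786). The WT call was lost in 20 of 30 fits that left out 1 library, and the AD call without AD 2-month library 1 or 3 or AD 12-month library 2 or 3. The AD against WT difference of Lpl at 4 months was -1.04 (adjusted p = 0.0863), with AD libraries of 0.893 to 1.20 FPKM below all WT libraries of 1.71 to 3.01, and it passed (adjusted p = 0.0345) without AD 6-month library 3.

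**Figure D1:**
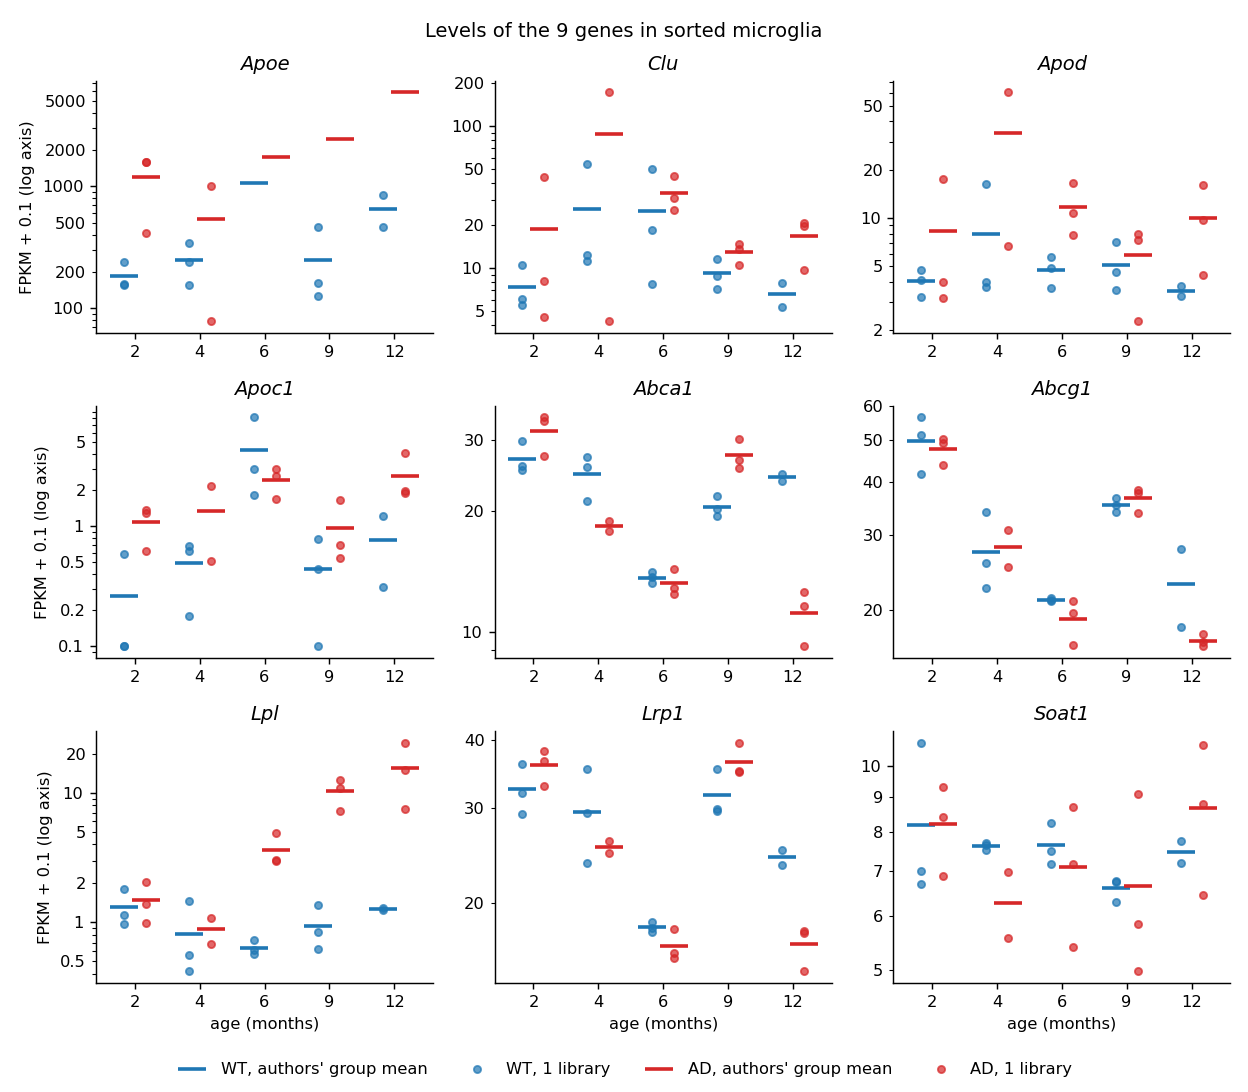
Levels of the 9 genes in sorted microglia by age in months (FPKM + 0.1, log axis); short lines are the authors' group means and points single libraries where they could be worked out (WT blue, AD red). AD libraries of Lpl lie above all WT libraries at 6, 9 and 12 months. Abca1, Abcg1 and Lrp1 are low in both genotypes at 6 months and in AD at 12 months. Abcg1 is low in WT at 12 months as well.

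Apoe encodes the main lipid carrier of the brain (chr7:19696109-19699188, minus strand). Its level in AD microglia was 1193, 541, 1749, 2437 and 5872 FPKM at 2, 4, 6, 9 and 12 months, and in WT microglia 184, 246, 1057, 250 and 657 FPKM, all authors' means. The AD mean was thus above that of WT at each age, by 6.34, 2.19, 1.62, 9.15 and 9.15 times. At 2 months the AD libraries gave 412, 1573 and 1595 FPKM against 156, 157 and 239 in WT and did not overlap with them. The log2 fold change there was 2.48 (SE 0.82), with a limma adjusted p of 0.761 over all genes. At 4 months the AD libraries were 78.4 and 1003 FPKM, one below and one above all 3 WT libraries (154, 240 and 345), with the higher value in the library of high endothelial and choroid plexus markers. Without that library the 4-month difference was -1.56, so its direction rested on it. The 6-, 9- and 12-month AD levels had no library values and were not tested. WT microglia varied as well: libraries of 9 months gave 126, 161 and 464 FPKM and those of 12 months 461 and 853.

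Astrocytes held more Apoe than microglia in every group. WT astrocytes had 3445, 6419, 8173, 5749 and 7026 FPKM from 2 to 12 months and AD astrocytes 3840, 5631, 6291, 4248 and 7090. Against 2 months the WT means were 0.89, 1.31, 0.71 and 1.01 higher on the log2 scale at 4, 6, 9 and 12 months, and the AD means 0.50, 0.76, 0.12 and 0.90. AD and WT astrocyte means differed by less than 0.5 at every age, from -0.46 at 9 to 0.13 at 2 months. Microglial Apoe was 3.84% to 12.9% of the astrocyte level in WT. In AD it was 31.1%, 9.6%, 27.8%, 57.4% and 82.8% at 2, 4, 6, 9 and 12 months. In comparison, 10 of 12 astrocyte markers in WT microglia were at 0.351% to 3.46% of their astrocyte level. The exceptions were Gfap at 2.12% to 9.21% and Slc1a3 at 26.95% to 230%. In AD microglia those 10 were at 7.80% to 13.8% at 4 months and at 1.07% to 4.76% at the other ages. Gfap in AD microglia was at 7.10%, 32.6%, 8.89%, 21.1% and 16.8% from 2 to 12 months, against 4.53% and 4.78% in WT at 9 and 12 months, and Slc1a3 in AD at 26.8% to 119%. The part of astrocyte RNA in microglial Apoe was not tested. In sorted bulk RNA, fewer cells of a type and less RNA per cell cannot be told apart.

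**Figure D2:**
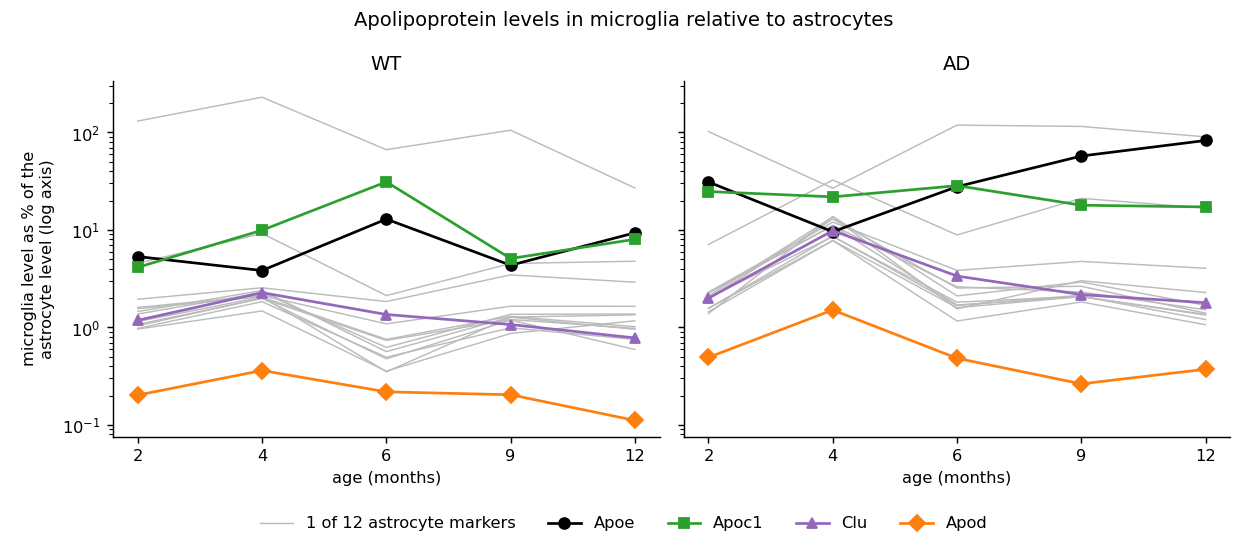
Microglial level as a percentage of the astrocyte level of the same genotype and age (log axis) by age in months, from the authors' means, for 4 apolipoproteins (coloured lines) and 12 astrocyte markers (grey lines, of which Slc1a3 lies uppermost in most groups). Apoe in AD microglia reaches 82.8% at 12 months, while Apod is at most 1.51%.

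Clu encodes clusterin, a chaperone and apolipoprotein (chr14:65968483-65981547, plus strand), and Apod encodes apolipoprotein D, a small lipid carrier of the lipocalin family (chr16:31296192-31314808, minus strand). Both were abundant in sorted astrocytes and low in microglia. The astrocyte groups also held 11 oligodendrocyte markers that summed to 12820 to 20960 FPKM, and 8 mural (vessel wall) markers that summed to 806 to 1699 FPKM. The 12 astrocyte markers summed to 641 to 1109 FPKM. The part of those other cells in the Clu and Apod levels of the astrocyte groups was not tested. Clu was 593 to 1864 FPKM in the astrocyte groups and 6.49 to 88.3 FPKM in the microglia groups, and Apod 1655 to 3073 and 3.42 to 33.6 FPKM. The highest Clu and Apod values of all microglia libraries, 172 and 60.6 FPKM, both came from AD 4-month library 2, whose partner had 4.14 and 6.60 FPKM. The next Clu values were 54.0 FPKM in WT 4-month library 1 and 49.7 FPKM in WT 6-month library 1, which had 20.7 FPKM over the endothelial markers. AD 6-month library 2 had 44.6 and AD 2-month library 3 had 44.0 FPKM of Clu, and the Apod level of the latter, 17.5 FPKM, was the second highest. Of the 5 libraries with the highest Clu, 3 were thus those that stood apart by their endothelial markers, and the other 2 came from the 6-month groups with high choroid plexus sums. The part of vessel and choroid plexus cells in the Clu and Apod levels was not tested.

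At 12 months the Clu libraries of AD microglia gave 9.68, 19.6 and 20.8 FPKM against 5.27 and 7.71 in WT without overlap, a difference of 1.30 with a limma adjusted p of 0.367. Those of Apod gave 4.29, 9.63 and 15.9 FPKM against 3.17 and 3.67, a difference of 1.33 with an adjusted p of 0.213. The choroid plexus gene Ttr went with both in the same libraries, with 30.3 FPKM in the AD library lowest in Clu and Apod, 1294 and 1537 FPKM in the other AD libraries and 3.89 and 13.8 FPKM in WT. At 4 months neither differed between AD and WT by the test with all libraries, but without AD 4-month library 1, which leaves only the library of high endothelial markers, Clu was 3.20 (adjusted p = 0.0338) and Apod 3.35 (adjusted p = 0.0143) higher. The mean difference of AD and WT over 5 ages was 0.76 for Clu (adjusted p = 0.309) and 0.99 for Apod (SE 0.34, adjusted p = 0.0802), so neither passed. Without the AD 4-month and AD 2-month libraries that stood apart, Clu rose by 2.42 (adjusted p = 0.00781) and Apod by 1.63 (adjusted p = 0.0467) in AD microglia of 6 against 2 months, and Clu by 1.44 (adjusted p = 0.0463) in WT microglia of 6 against 2 months, by the same limma fit. The choroid plexus sums moved in the same direction: they were 4907 FPKM in AD at 6 months against 208 and 403 in the 2 AD 2-month libraries kept, and 3386 FPKM in WT at 6 against 312 at 2 months, and their part was not tested. In astrocytes the Clu mean was highest in WT at 6 months (1864 FPKM, against 614 at 2 months), and the AD mean of 6 months was 1002 FPKM, -0.94 on the log2 scale against WT. In these WT 6-month, WT 2-month and AD 6-month groups the 12 astrocyte markers summed to 1109, 641 and 679 FPKM. The 6 ependymal markers summed to 687, 122 and 410.5 FPKM. The part of such shifts in the Clu means was not tested. The astrocyte Apod means were 0.64 higher in WT and 0.70 higher in AD at 12 than at 2 months. For both genes these astrocyte values had no library values beside them, except for Clu in WT at 12 months with 678, 686 and 1128 FPKM.

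**Figure D3:**
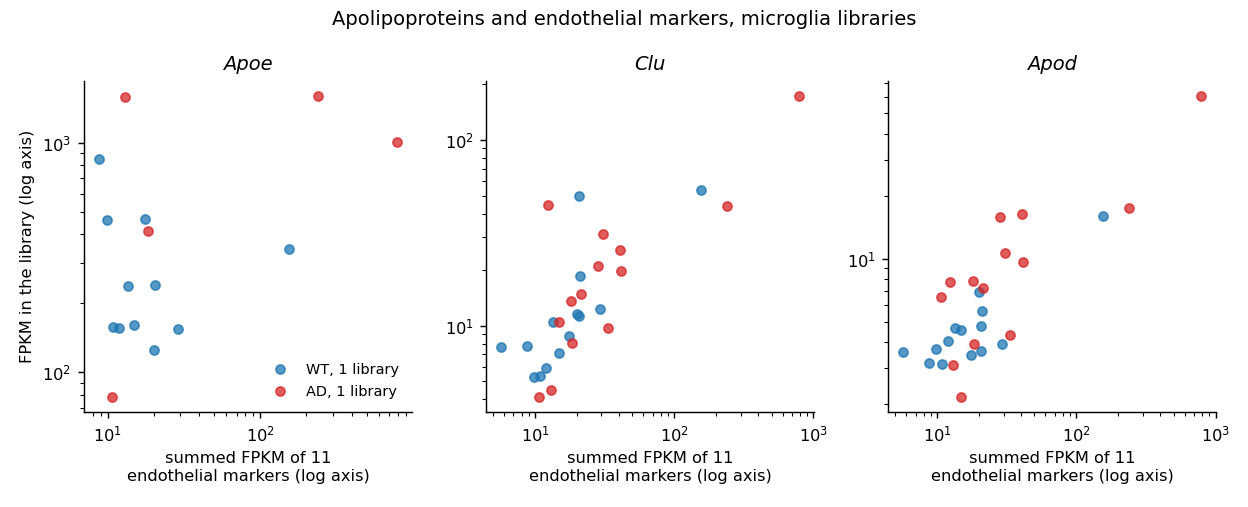
Apoe, Clu and Apod levels of single microglia libraries (FPKM, log axis) against the summed level of the 11 endothelial markers in the same library (FPKM, log axis), WT in blue and AD in red. The 3 libraries with sums of 155, 240 and 787 FPKM stand to the right of all others, which lie between 5.70 and 41.5.

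Apoc1 encodes apolipoprotein C-I, a small exchangeable apolipoprotein, and lies 3448 bases downstream of Apoe on the same strand (chr7:19689481-19692660). In WT microglia it was at 0, 0 and 0.483 FPKM at 2 months and at 1.72, 2.92 and 7.93 FPKM at 6 months, a rise of 4.27 (SE 0.83, limma adjusted p = 0.000285) whose size depends on the 0.1 added. The AD microglia libraries of 6 months were at 1.59, 2.53 and 2.87 FPKM. At 12 months AD microglia had 1.77, 1.87 and 3.97 FPKM against 0.210 and 1.11 in WT, a difference of 2.01 (adjusted p = 0.0919). Over 5 ages the mean difference of AD and WT was 1.33 (SE 0.39, limma adjusted p = 0.0406), fitted with all libraries only. Its size also depends on the 0.1 added. The 6-month means ran the other way, at 2.33 FPKM in AD and 4.19 in WT. By the group fold, the 4-month difference went from 1.43 to 0.10 without AD 4-month library 2. That of 9 months went from 1.03 to 0.41 without AD 9-month library 2, and that of 6 months from -0.85 to -0.05 without WT 6-month library 1. In astrocytes Apoc1 had 2.91, 4.08 and 4.67 FPKM in WT at 2 months and rose to 11.4, 13 and 15.9 FPKM at 6 months, by 1.80 (adjusted p = 7.86e-05). It was at 7.01, 8.05 and 9.63 FPKM in WT at 12 months, up by 1.07 (adjusted p = 0.0189), which was lost without WT 2-month library 2 or WT 12-month library 3. The AD astrocytes of 6 months, at 5.19, 6.49 and 12.9 FPKM, rose by 1.002 (adjusted p = 0.0217), which was lost without AD 2-month library 1 or 2 or AD 6-month library 3. AD astrocytes had 3.04, 3.20 and 5.68 FPKM at 2 months and 12.5, 14.2 and 17.5 FPKM at 12 months, a rise of 1.92 (SE 0.33, limma adjusted p = 0.000106). The 12-month AD libraries were all above those of WT, by 0.83 (limma adjusted p = 0.062). The adjusted p was 0.0393 to 0.0443 when AD 4-month library 1 or 3 or AD 6-month library 3 was left out. With the length and GC trend removed the difference was 0.87 (adjusted p = 0.0446). Apoc1 has 744 exon bases. Genes of up to 1000 exon bases had a median log2 fold change of 0.55 in WT microglia of 6 against 2 months. In astrocytes against 2 months their median was 0.56 and 0.41 in WT, and 0.45 and 0.44 in AD, at 6 and 12 months. For the rises of Apoc1 against 2 months, values with the trend removed are not given here.

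Abca1 encodes the transporter that moves cholesterol and phospholipid onto lipid-poor apolipoproteins (chr4:53030787-53159895, minus strand), and its promoter is the one printed above with a receptor element. In AD microglia it was at 27.2, 33.4 and 34.0 FPKM at 2 months, 12.3, 12.8 and 14.3 at 6 months, 25.5, 26.7 and 30.1 at 9 months and 9.13, 11.5 and 12.5 at 12 months. In WT microglia it was at 25.1, 25.7 and 29.8 FPKM at 2 months, 13.1, 13.6 and 14 at 6 months and 23.6 and 24.7 at 12 months. The 6-month libraries were low in both genotypes, and those of 12 months in AD alone. Abca1 fell against WT at 12 months by -1.13 (SE 0.13, limma adjusted p = 1.59e-06) and stayed past the threshold with the length and GC trend removed, at -0.86 (adjusted p = 3.87e-05). The difference was 0.38 (adjusted p = 0.0650) at 9 months. Against 2 months Abca1 fell by -0.99 in WT (adjusted p = 8.56e-07) and -1.26 in AD (adjusted p = 1.51e-07) at 6 months, and by -1.50 in AD at 12 months (SE 0.11, adjusted p = 1.07e-08). With the trend removed these were -0.63, -0.95 and -1.20 (adjusted p = 0.000168, 6.60e-06 and 2.97e-07). In AD at 4 months, with libraries of 17.7 and 18.8 FPKM, it fell by -0.75 (adjusted p = 0.00393), which was lost (adjusted p = 0.0628) without both AD libraries that stood apart. Astrocyte levels were 3.83 to 8.23 FPKM. There limma called only AD at 6 months, with 2.93, 3.34 and 5.20 FPKM against 5.22, 6.08 and 7.03 at 2 months, a fall of -0.66 (adjusted p = 0.0048) that was -0.39 (adjusted p = 0.1) with the trend removed.

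Abcg1 encodes a half-transporter that passes cholesterol to lipidated particles (chr17:31057675-31117988, plus strand). Its values fitted an exon length of 4066 bases in place of the 7298 of GENCODE M21, so its FPKM rests on a shorter gene model. In microglia it was highest at 2 months in both genotypes, at 41.6, 51.2 and 56.4 FPKM in WT and 43.6, 49.2 and 50.1 in AD. It was at 20.9, 21 and 21.3 FPKM in WT and 16.5, 19.6 and 20.8 in AD at 6 months, and at 18.2 and 27.7 in WT and 16.4, 16.7 and 17.5 in AD at 12 months. It fell against 2 months by -0.88, -1.24 and -1.14 in WT at 4, 6 and 12 months (limma adjusted p = 0.00299, 1.22e-06 and 0.000358) and by -0.74, -1.33 and -1.48 in AD (adjusted p = 0.0142, 1.30e-06 and 2.46e-07). The AD 4-month call was lost when AD 2-month library 1 or AD 4-month library 2 was left out, and the others kept their call in every such fit. Values of these falls with the length and GC trend removed are not given here. Genes of 4000 to 8000 exon bases, a class that holds both lengths, had medians of -0.14, 0.11 and -0.06 in WT at 4, 6 and 12 months. In AD microglia the medians of that class were -0.13, 0.03 and 0.02. At 9 months the differences were -0.50 in WT (adjusted p = 0.0578) and -0.42 in AD (adjusted p = 0.0383), both under the fold threshold. Each passed when 1 library was left out, with -0.61 (adjusted p = 0.0422) in WT without WT 2-month library 3 and -0.50 (adjusted p = 0.0332) in AD without AD 2-month library 3. AD and WT microglia differed by -0.41 at 12 months (adjusted p = 0.0534), and by -0.71 (adjusted p = 0.00573) without WT 12-month library 2.

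In astrocytes, Abcg1 libraries of 12 months gave 50.3, 57.5 and 60.4 FPKM in WT and 18.2, 20.5 and 21.2 in AD. This fall of -1.48 (SE 0.23, limma adjusted p = 0.000113) was the largest tested AD change of a member in astrocytes. It remained past the threshold with the length and GC trend removed (-1.33, adjusted p = 0.00048). That trend was fitted with the GENCODE M21 length of 7298 bases for Abcg1. WT astrocytes had 26.1, 30.9 and 33.1 FPKM at 2 months, rose by 0.89 (adjusted p = 0.00659) to 12 months and fell by -1.17 (adjusted p = 0.000192) to 12, 13 and 14.2 FPKM at 6 months. AD astrocytes of 6 months were at 12.9, 18.9 and 23.4 FPKM, 0.44 above WT (adjusted p = 0.225).

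**Figure D4:**
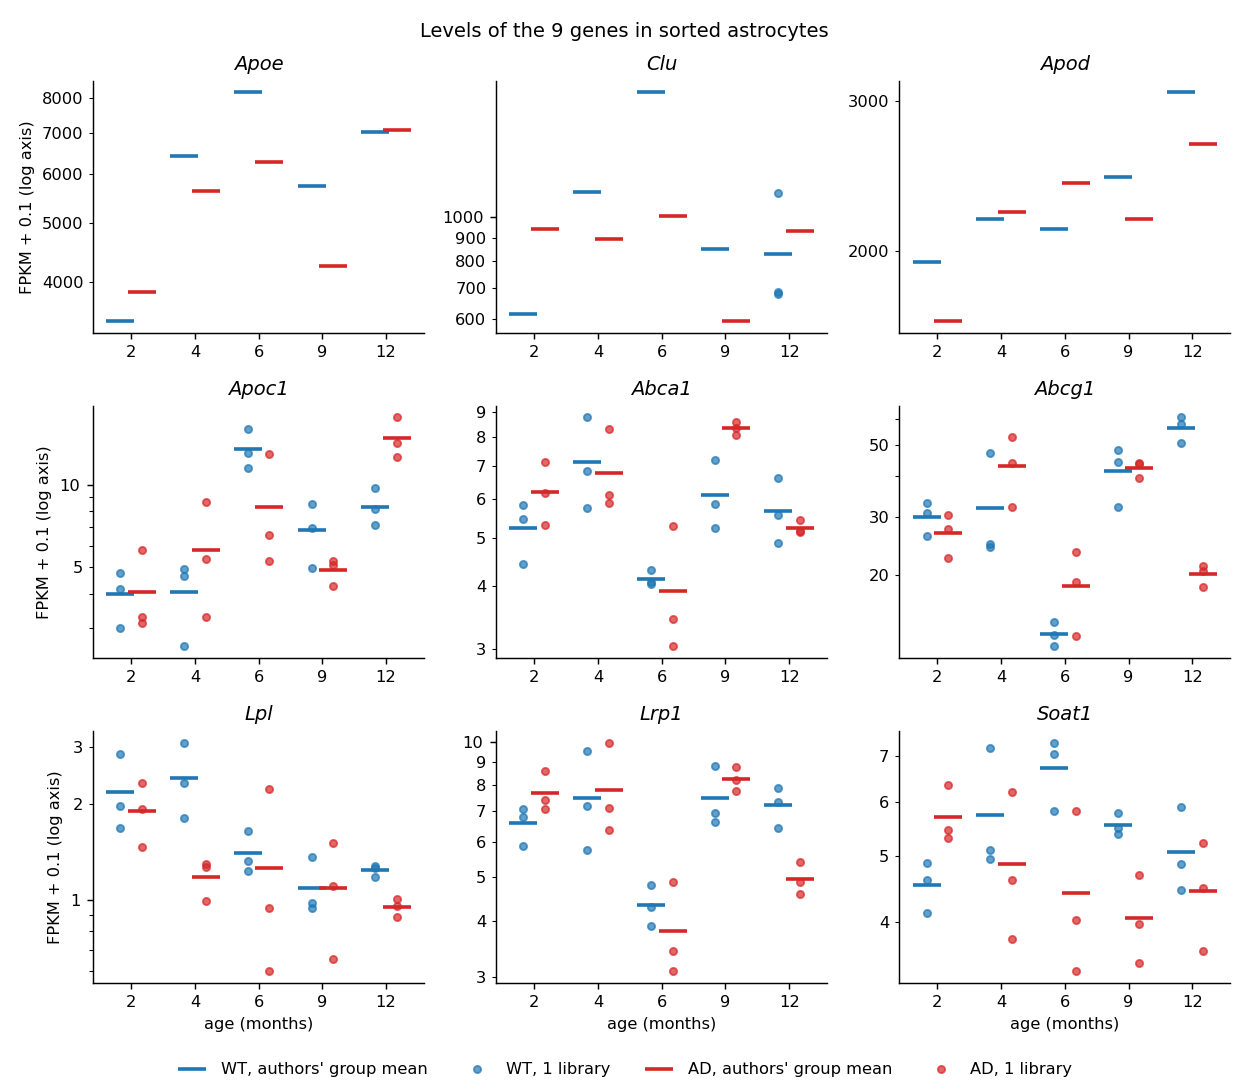
Levels of the 9 genes in sorted astrocytes by age in months (FPKM + 0.1, log axis), drawn as for microglia; Apoe, Apod and most Clu groups have only the authors' mean. The 3 AD libraries of Abcg1 at 12 months lie between 18.2 and 21.2 FPKM, below the WT libraries of 50.3 to 60.4.

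Lrp1 encodes a large endocytic receptor for ApoE particles and many other ligands (chr10:127538161-127621148, minus strand) and has the longest exon model of the 9, with 17717 bases. Microglia of 2 months had 29.1, 31.9 and 36.0 FPKM in WT and 32.8, 36.6 and 38.1 in AD. The libraries of 6 months had 17.6, 17.9 and 18.3 FPKM in WT and 15.7, 16.0 and 17.8 in AD, and those of 12 months 23.4 and 25 in WT and 14.8, 17.5 and 17.6 in AD. Lrp1 fell against 2 months by -0.86 in WT at 6 months (limma adjusted p = 4.88e-06) and by -1.12 and -1.09 in AD at 6 and 12 months (adjusted p = 6.25e-07 and 4.37e-07). It fell in AD against WT at 12 months by -0.53 in microglia (SE 0.13, adjusted p = 0.00214) and by -0.54 in astrocytes (adjusted p = 0.0215), where the libraries were 4.50, 4.79 and 5.29 against 6.34, 7.25 and 7.80 FPKM. With the length and GC trend removed neither remained: the limma differences were 0.08 (adjusted p = 0.717) and 0.09 (adjusted p = 0.780). The microglial call was also lost without WT 12-month library 1 or AD 12-month library 2, and the astrocytic one without WT 12-month library 1 or 2 or AD 12-month library 2 or 3. The falls of 6 and 12 against 2 months were lost with the trend removed as well, and the AD 4-month microglia then fell by -0.66 (adjusted p = 0.0208). In astrocytes without that correction Lrp1 fell against 2 months by -0.59 in WT at 6 months (adjusted p = 0.00558) and by -1.01 and -0.62 in AD at 6 and 12 months (adjusted p = 0.000103 and 0.00672).

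**Figure D5:**
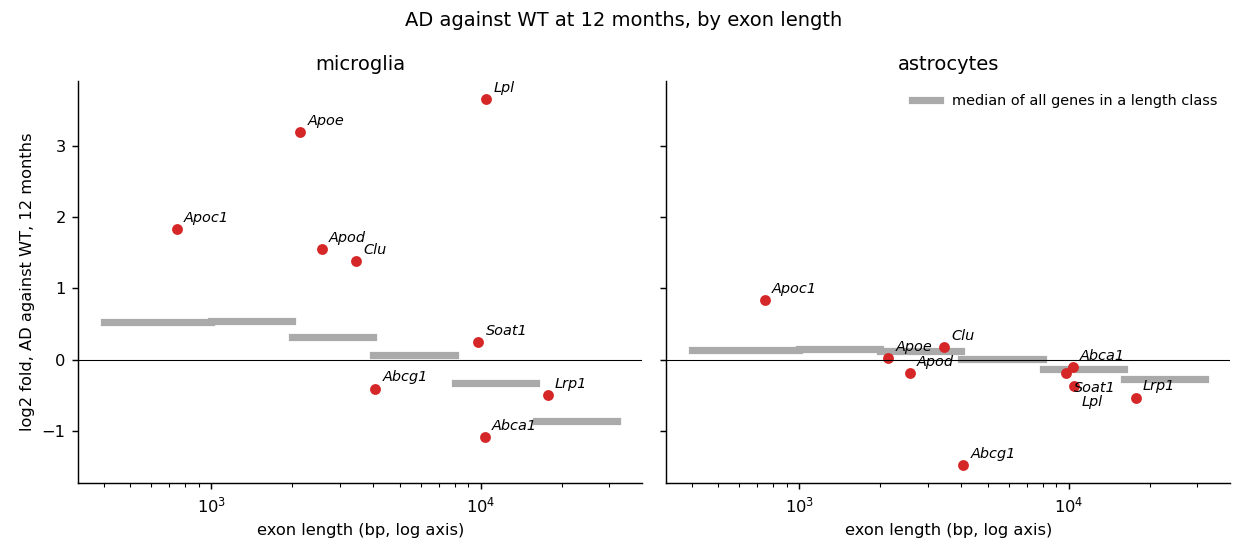
Log2 fold change of AD against WT at 12 months by exon length (bases, log axis) in microglia and astrocytes, with the median of each length class over all genes and the members marked. In microglia the class medians run from 0.53 in the shortest to -0.86 in the longest genes, and Lrp1 lies at the long end.

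Soat1 encodes the enzyme that esterifies cholesterol for storage (chr1:156424525-156474331, minus strand), and it was the steadiest member. Its microglia means lay between 6.18 and 8.55 FPKM, with single libraries from 4.88 to 10.7, and no microglial comparison of genotypes or ages passed the test with all libraries; AD at 9 against 2 months passed (-0.64, limma adjusted p = 0.0366) without AD 9-month library 3. In astrocytes, WT libraries had 4.02, 4.52 and 4.78 FPKM at 2 months and 5.71, 6.95 and 7.23 at 6 months, a rise of 0.59 (limma adjusted p = 0.00922). The AD libraries of 6 months had 3.29, 3.93 and 5.72 FPKM, a fall of -0.65 against WT (SE 0.18, adjusted p = 0.0340), and the highest of them overlapped with the lowest of WT. This call was lost when WT or AD 6-month library 1 or 2 was left out. With the length and GC trend removed the values were 1.05 for the WT rise (adjusted p = 0.000184) and -0.82 for the difference of AD and WT (adjusted p = 0.0214). The 12 astrocyte markers summed to 641 FPKM in WT at 2 months, 1109 in WT at 6 and 679 in AD at 6 months. The part of this shift in the Soat1 changes was not tested.

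Counted over 4 later ages, the 9 genes gave up to 36 comparisons with 2 months in each genotype and cell type. In WT microglia 7 of 34 were higher by the fold alone (17.2% of all genes) and 8 lower (12.7%); limma called 1 of 35 higher (4.98%), Apoc1 at 6 months, and 5 lower (6.38%), all of them Abca1, Abcg1 or Lrp1. In AD microglia 12 of 36 were higher (23.3%) and 13 lower (17.2%), and limma called 3 of 33 higher (9.21%), all Lpl, and 8 lower (10.0%), again all of Abca1, Abcg1 or Lrp1. In WT astrocytes 12 of 36 were higher (17.3%) and 5 lower (15.2%), and limma called 4 of 24 higher (9.65%) and 3 lower (10.4%). In AD astrocytes 9 of 36 were higher (15.6%) and 9 lower (13.3%), and limma called 2 of 24 higher (7.23%), both Apoc1, and 4 lower (7.66%).

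The cell types were set side by side within each of the 10 groups of genotype and age. By the fold 32 of 90 comparisons were higher in microglia (36.0% of all genes) and 44 lower (37.5%). With limma 32 of 61 were called higher (27.9%) and 15 lower (34.9%). Apoe, Apod and, outside WT at 12 months, Clu could not be tested, and their authors' means were lower in microglia in every group. The limma shares thus leave out members with low microglial relative to astrocyte levels. The efflux transporter Abca1 and the receptor Lrp1 were higher in microglia in 10 of 10 groups, by 1.09 to 2.38 and by 1.73 to 2.31. Apoc1 was lower in microglia in 10 of 10 groups, by -1.69 to -4.43. Soat1 was higher in microglia in 6 of 10 groups, by 0.53 to 0.96. Lpl was lower in microglia in WT at 4 and 6 months (-1.74 and -1.12) and higher in AD at 6, 9 and 12 months (1.72, 3.28 and 3.88). Abcg1 was higher in microglia at 2 months in both genotypes (0.73 in WT, 0.85 in AD) and in WT at 6 months (0.70), and lower in WT at 12 (-1.30) and AD at 4 months (-0.58). For Clu, the only testable group, WT at 12 months, gave -6.95 (SE 1.04, limma adjusted p = 2.14e-06).

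Other genes of lipid handling were read from 5 lists of regulators, apolipoproteins, transporters, receptors and enzymes. In AD against WT microglia none of the lists had a gene past the limma threshold at 2, 4 or 6 months. At 9 months 3 of 14 genes of lipid storage and hydrolysis rose (Ch25h, Nceh1 and Soat2) and 0 fell. At 9 months limma called 241 of 16632 genes higher and 143 lower. At 12 months 3 of 12 sterol-sensing regulators rose (Insig1, Srebf1 and Srebf2, of the pathway that controls cholesterol synthesis) and 2 fell (Mylip, Ppard). Among lipoprotein receptors and their partners Lrpap1, Msr1 and Scarb1 rose and Lrp5, Lrp6 and Sorl1 fell, and of 14 genes of lipid storage and hydrolysis 3 rose (Ch25h, Lipa, Nceh1) and 1 fell (Cyp27a1). Among 9 other transporters Abca7 alone fell, and among 6 other apolipoproteins Apoo alone rose. At that age limma called 14.0% of all genes higher and 18.4% lower in AD microglia, so several of these counts lie near the share of all genes, and nothing particular to the lists is read from them. In astrocytes of 12 months Mylip, Ppard, Rxrb, Abca7, Lrp5, Lrp6, Lrp8, Scarb1 and Lipe fell, and Apoa1, Apoa2, Trem2 and Dgat2 rose, where 10.1% of all genes fell and 7.69% rose.

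Ch25h, which makes 25-hydroxycholesterol, had microglial means of 0.897 to 1.65 FPKM in WT and of 0.439, 1.08, 1.93, 11.5 and 12.3 FPKM in AD from 2 to 12 months. It rose in AD against WT by 2.66 (limma adjusted p = 0.00317) at 9 and 3.60 (adjusted p = 2.06e-05) at 12 months, ages at which Lpl was high as well. In astrocytes Abca8a, a lipid transporter of the ABC family, went from 2.21 to 12.5 FPKM in WT and from 1.53 to 11.9 in AD astrocytes, rises of 2.48 and 2.94. Srebf1, which drives lipid synthesis, rose against 2 months in WT astrocytes at each later age, by 0.70 to 1.20.

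The genes most alike to each member were taken as the 3 with the highest Pearson correlation of log2 level over the 10 groups of a cell type, among 6168 genes in microglia and 6218 in astrocytes; the points share their libraries and the length trend, and the values are descriptions. For microglial Lpl they were Ank (0.96), Fabp5 (0.94) and Cst7 (0.92), of which Cst7 ranged from 10.2 to 1951 FPKM. For microglial Apoe they were Lgals3 (0.93), Plaur (0.91) and Gm14681 (0.90). For microglial Clu they were Chchd10, Car2 and Cpe (0.96 to 0.98), and for Apod Prnp, Ptgds and Ptn (0.96 to 0.97). Prnp is the gene whose promoter the transgenes use. For astrocytic Clu they were Mlc1, Fads2 and Lcat, each at 0.97; Lcat encodes the enzyme that esterifies cholesterol on particles. Within the 9 genes, microglial Abca1, Abcg1 and Lrp1 went together (0.84 to 0.93 for the 3 pairs), as did Clu with Apod (0.89) and Apoe with Lpl (0.80). In astrocytes the highest pairs were Abca1 with Lrp1 (0.90), Clu with Soat1 (0.83) and Abcg1 with Lrp1 (0.82).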

How the data were processed

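RNA of sorted mouse microglia and astrocytes was sequenced as paired-end SMART-Seq v4 libraries, which do not keep strand. The authors deposited a table of FPKM that holds 1 column for each group. Their methods name HISAT2 and featureCounts, while the submitters' processing notes name Bowtie 0.12.2 and the build mm8; exon lengths of GENCODE M21 (GRCm38) gave whole fragments for 33215 genes, and a length was found from the values for 2144 of the other 2759. No exon of a member overlapped that of another annotated gene.

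The 9 genes and all lists were chosen with earlier results of these data known. The written design took the columns as group values with no test and used the fold alone. Because the deposited FPKM values had 15 significant digits, the fragment counts of the libraries were then recovered (98.2% to 98.9% of values above 0), and limma was added after seeing the data. In simulated columns 95483 of 95615 values had 1 solution, and all of those were right.

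For the group folds, size factors (median of ratios) came from 18974 microglia and 22232 astrocyte genes above 0 in all groups. After scaling, 0.1 was added and log2 taken, and for the fold alone a gene had to reach 0.5 FPKM in either group of a comparison. The fold threshold was 0.5 (log2). limma (trended empirical Bayes, Benjamini-Hochberg over all genes) used all recovered libraries of a cell type in 1 fit. Its size factors came from the libraries, and a gene had to reach 0.5 FPKM in the mean of any group of the fit. Each labelled sample is 1 brain by the methods, and since libraries could not be tied to a label, no batch, litter or pairing was used. Named genes are the 9 members, list members past the threshold, and the 3 most alike genes per member. One list gene is not reported here. Other settings were the FPKM as given, quantile normalization, a pseudocount of 1, no filter, size factors from genes of 1 FPKM or more, removal of a degree 3 trend in length and GC content, groups or libraries left out.

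limma was tested on simulated data. Python 3.11.15, pandas 2.3.3, NumPy 2.4.6, SciPy 1.17.1, Matplotlib 3.10.9, R 4.3.3 and limma 3.58.1 were used.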

Additional observations from a re-analysis of the deposited data

Results flagged for a closer look

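The following differences were picked because the AD against WT change was tested to differ between cell types or between ages, in the limma fit over all libraries with Benjamini-Hochberg adjustment.

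The Lpl change was larger in microglia than in astrocytes by 2.84 at 6 months (adjusted p = 0.0155), 3.54 at 9 months (adjusted p = 0.000183) and 3.84 at 12 months (adjusted p = 3.72e-05). Within microglia it was larger than at 2 months by 3.28 at 9 months (adjusted p = 0.0249) and by 3.31 at 12 months (adjusted p = 0.00173). All AD libraries of these later ages lay above all WT libraries of the same age.

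The Abca1 change at 12 months was -1.03 in microglia relative to astrocytes (adjusted p = 0.00299) and -1.35 in microglia relative to that at 2 months (adjusted p = 5.66e-05). The Abcg1 change at 12 months differed the other way, by 1.08 for microglia relative to astrocytes (adjusted p = 0.0125), and in astrocytes it was -1.29 relative to that at 2 months (adjusted p = 0.0251). The Lrp1 change of microglia was -0.68 at 12 relative to 2 months (adjusted p = 0.00748); Lrp1 was past the threshold at 12 months no longer once the length and GC trend was removed.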

How the results depend on the processing

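Counts of members past the fold threshold kept within 1.5 times of those given, except as follows. In limma, which also asks for the adjusted p, 3 were higher in AD than WT microglia, and 0 higher and 3 lower in AD than WT astrocytes; against 2 months 1 was higher and 5 lower in WT microglia, 3 and 8 in AD microglia, 4 and 3 in WT astrocytes and 2 and 4 in AD astrocytes, and 15 were lower in microglia than astrocytes. AD astrocytes higher than WT: 6 with quantile normalization and 5 with size factors from 1 FPKM. Lower than at 2 months: 5 in WT microglia and 3 in WT astrocytes with a pseudocount of 1, and 3 in WT and 5 in AD astrocytes with the trend removed. Leaving out the 6-month groups and AD 12 months only drops comparisons. It keeps 205 of 322 member values with the same folds, so smaller counts there are no change of a value. The counts of AD against WT were then 11 higher and 0 lower in microglia and 1 and 3 in astrocytes. Against 2 months they were 4 and 4 in WT and 4 and 7 in AD microglia. In astrocytes 2 were lower in WT, and 3 higher and 4 lower in AD. Between cell types 21 were higher in microglia. Against the mean of the other ages 5 were higher in WT and 5 in AD astrocytes. Without AD 4-month library 2 and AD 2-month library 3, 5 were lower in AD microglia.

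With each library left out in turn the counts ran from 15 to 21 and 2 to 5 (AD microglia higher, lower than WT), 6 to 10 and 6 to 9 (WT microglia over age), 10 to 16 and 11 to 15 (AD microglia), 2 to 3 and 7 to 9 (AD against WT astrocytes), 12 to 13 and 4 to 5 (WT astrocytes), 7 to 10 and 8 to 10 (AD astrocytes), and 31 to 33 and 43 to 45 between cell types.

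The group fold of Lrp1 turned with the trend removed: 0.18 in AD against WT microglia at 12 months, 0.089 in astrocytes, and 0.37 in WT astrocytes of 6 against 2 months. The other called member values kept their direction with the trend removed, and 25 of 322 moved. limma calls of Lpl, Abca1 and Abcg1 in AD against WT held in every fit that left out 1 library, with adjusted p up to 0.0484 for Lpl at 6 months. No paired analysis was possible because the recovered libraries carry no replicate number. Depth limits Apoc1 and Lpl most, which are under 2 FPKM in many libraries.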
